A study of Mus musculus with 8 samples.

Results

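The 9 genes described here, *Cx3cr1*, *P2ry12*, *Tmem119*, *Csf1r*, *Aif1*, *C1qa*, *C1qb*, *Trem2* and *Mrc1*, are markers of microglia and of the macrophages at the borders of the brain. They were chosen by name from the 49315 genes counted, after their Ensembl identifiers had been matched to symbols, and all 9 were among the 16887 genes with enough counts to be tested. RNA was sequenced from brain endothelial cells (ECs) of 8 pups, each giving 1 library, to ask what mutant MAP2K1 changes in the ECs of vascular malformations. The 4 mutant pups were R26GT-Map2k1-GFP/+;Tg-Cdh5CreER+/-, in which a tamoxifen-activated Cre, driven by the endothelial *Cdh5* promoter, allows the CAG promoter at the Rosa locus to express MAP2K1 (p.K57N). The 4 controls are labelled wild type, though the title of 1 of the study's supplementary lists names a Tg:*Cdh5*-CreER control. Litters received tamoxifen on day 1 after birth, brains were taken on day 9, and both lines had been backcrossed to C57BL/6J. Recombination reached only part of the ECs of the mutant pups, so each mutant library mixes recombined ECs with ECs that were not. Cells were taken from digested whole brain with magnetic beads that bind CD31, a surface protein of ECs that leukocytes and platelets also carry.

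Microglia are the resident macrophages of the brain parenchyma, and a separate set of macrophages lines the vessels, the meninges and the choroid plexus. Both need signals through the receptor CSF1R to survive, both depend on the transcription factor PU.1 (*Spi1*), and both make the C1q chains that start the classical complement pathway. Microglia keep P2RY12, TMEM119 and high CX3CR1 at rest and lower P2RY12 when activated, whereas border macrophages are marked by the mannose receptor MRC1. Genes of this kind in a CD31 preparation come from cells carried along with the ECs or from ECs that make some of the same transcripts, and bulk RNA does not separate these sources. Nor can fewer cells of a type be told apart from less RNA per cell.

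The 3 promoters are shown because PU.1 binds purine-rich sites around the letters GAGGAA, and the results turn on whether these genes move together. The RefSeq promoter table used here (GRCm38.p6) was matched for 6 of the 9 genes. The letters GAGGAA, searched on both strands in the 250 bases before the RefSeq start, were found in 4 of the 6, those of *Aif1*, *C1qb*, *Trem2* and *Mrc1*, and not in those of *Cx3cr1* and *P2ry12*. All 250 bases of the *Cx3cr1* and *P2ry12* stretches lay within annotated exons, against 0 to 22 bases for the other 4. The *Cx3cr1* stretch also lies within the gene as the count files give it. A missing match in these 2 thus says little about their promoters. They occur in 23.3% of the 32851 promoters of the table, so a match is common and describes letters only. Each promoter is written 5′ to 3′ on the strand of its gene. Capitals mark the match, which reads TTCCTC where it lies on the other strand.
*Trem2*, chr17:48346151-48346400, plus strand: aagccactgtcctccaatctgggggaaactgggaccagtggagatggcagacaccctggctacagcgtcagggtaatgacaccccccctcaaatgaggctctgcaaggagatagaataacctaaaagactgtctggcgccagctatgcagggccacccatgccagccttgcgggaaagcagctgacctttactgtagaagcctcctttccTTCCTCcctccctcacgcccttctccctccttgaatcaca
*Mrc1*, chr2:14229164-14229413, plus strand: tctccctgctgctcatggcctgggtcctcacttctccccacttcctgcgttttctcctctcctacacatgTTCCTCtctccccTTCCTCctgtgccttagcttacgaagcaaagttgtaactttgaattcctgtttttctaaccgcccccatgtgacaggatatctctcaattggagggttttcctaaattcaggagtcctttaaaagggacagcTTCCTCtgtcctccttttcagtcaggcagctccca
*Aif1*, chr17:35176053-35176302, minus strand: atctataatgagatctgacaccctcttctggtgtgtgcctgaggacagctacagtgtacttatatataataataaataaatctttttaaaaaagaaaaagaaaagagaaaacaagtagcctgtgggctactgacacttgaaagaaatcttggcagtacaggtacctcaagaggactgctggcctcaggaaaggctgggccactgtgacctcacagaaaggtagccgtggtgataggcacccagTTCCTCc
*Mrc1* held 3 matches and the other 2 promoters 1 each. The match of *Aif1* lies 7 bases before the RefSeq start but within the gene as the count files give it, which ends at 35176068. *Tmem119*, *Csf1r* and *C1qa* are named only.

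*Map2k1* first served to check the labels. Mutant libraries held 14619 ± 2851 normalized counts of it and wild-type libraries 1611 ± 116 (SD, n = 4 each), with no overlap (log2 fold change 3.18, SE 0.13, edgeR adjusted p = 2.84e-07). Normalized counts are counts scaled by the TMM method to the mean library size. Total counts on genes ran from 24833373 to 34196955 per library. On a per-length scale, in CPM (counts scaled to the library total) per kilobase of exon, the medians of 10 EC genes ran from 28.0 for *Emcn* to 1554 for *Cldn5*. *C1qa*, the highest of the 9, had a median of 22.4 and exceeded *Emcn* in 4 of the 8 libraries. The rest followed in the order *C1qb* (17.3), *Csf1r* (14.9), *P2ry12* (4.20), *Cx3cr1* (3.47), *Mrc1* (2.43), *Tmem119* (2.36), *Trem2* (1.11) and *Aif1* (0.737). Each gene's level varied at least 3.41-fold over the 8 libraries, so most neighbours in this order were not separated beyond their spread. Taken as a whole the 9 genes held 0.0261% ± 0.0166 (SD, n = 4) of the counts of mutant and 0.0240% ± 0.0194 (SD, n = 4) of those of wild-type libraries.

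No difference in level between mutant and wild-type libraries passed the test for any of the 9 genes in the fit without a block, whereas with the label prefix as a block *P2ry12* fell and *Mrc1* rose. All 9 overlapped between the groups, 0 of 9 passed an adjusted p of 0.05 in edgeR's quasi-likelihood test, 0 had an unadjusted p under 0.05, and 0 passed with DESeq2. By the same test 44.4% of all genes passed, 21.5% having risen and 22.9% fallen, and the groups did not overlap for 42.5%. With the study's added limit of 1 on the absolute log2 fold change, 5.9% were higher and 8.05% lower in mutant libraries. What the 9 genes did show was a large difference from pup to pup. Their summed normalized counts were 3368, 4223, 13300.0 and 10296 in mutant libraries 1 to 4 and 3831, 5506, 14682 and 3459 in wild-type libraries 1 to 4. Mutant 3, mutant 4 and wild type 3 were thus high and the other 5 low, and the highest library held 4.36-fold the lowest.

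**Figure D1:**
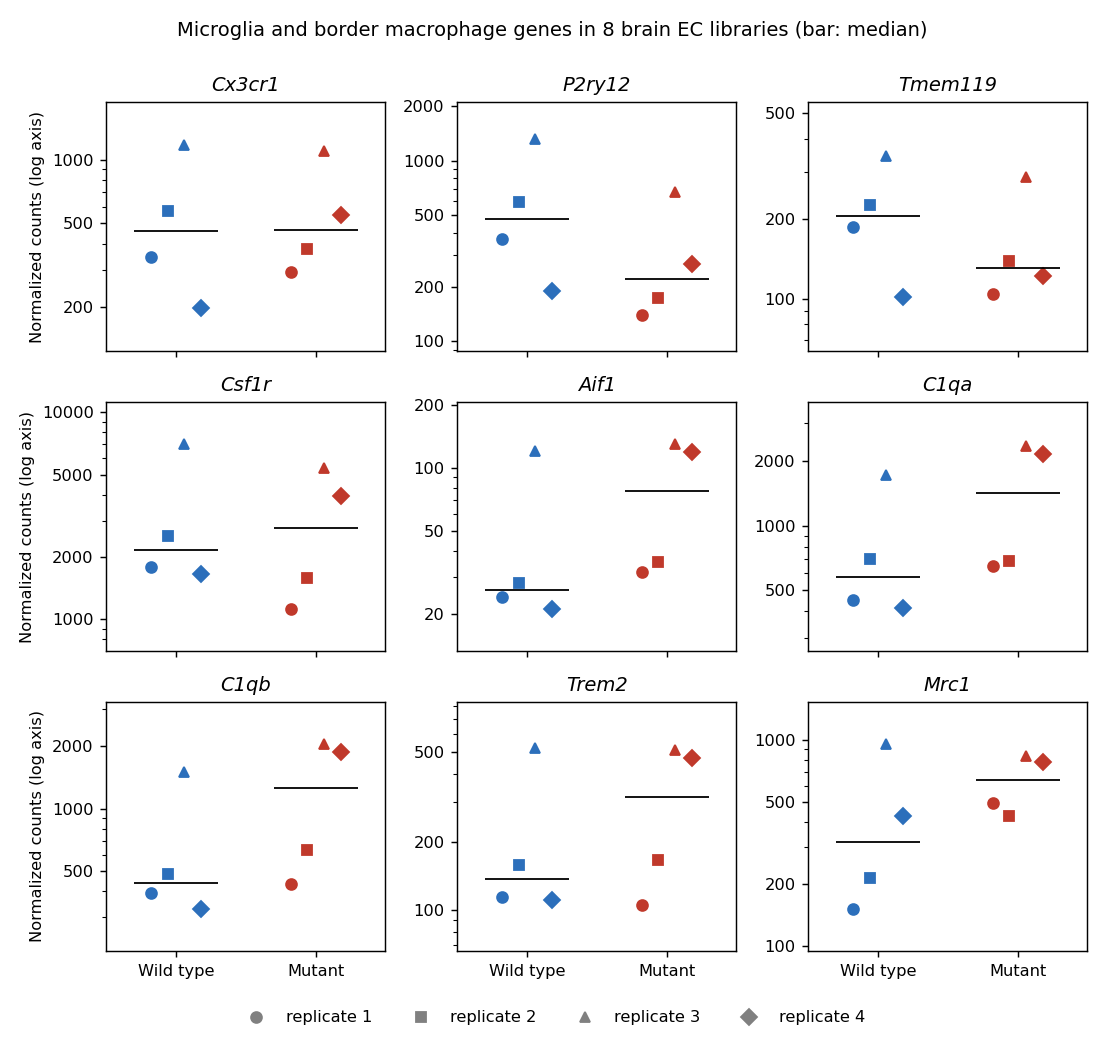
Normalized counts (log axis) of the 9 genes in the 4 wild-type (blue) and 4 mutant (red) libraries, with a symbol for each replicate and a bar at the group median. The groups overlap in every panel, and the triangle of replicate 3 is high in both groups.

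The receptors that mark resting microglia came first. *Cx3cr1*, the receptor for the chemokine fractalkine, had 295, 379, 1105 and 549 normalized counts in mutant libraries 1 to 4 and 348, 575, 1174 and 198 in wild-type libraries 1 to 4. The group means of 582 ± 364 and 574 ± 429 (SD, n = 4 each) were nearly equal (log2 fold change 0.02, 95% interval -1.15 to 1.18, edgeR adjusted p = 0.98). In the count files *Cx3cr1* lies on chromosome 9 from 119901616 to 120069879, a span that overlaps 9 other genes, 6 of them on the opposite strand. *P2ry12*, a receptor for ADP on chromosome 3 (59216272 to 59262871), had 141, 175, 670.4 and 267 in the mutant and 368, 587, 1322 and 191 in the wild-type libraries. In 3 of the 4 mutant libraries *P2ry12* lay below 3 of the 4 wild-type libraries, but wild type 4 was low and mutant 3 was high. The means were 313 ± 244 and 617 ± 497 (SD, n = 4 each), and the lower mutant level did not pass without the block (log2 fold change -0.98, SE 0.60, 95% interval -2.31 to 0.35, adjusted p = 0.21). *Tmem119*, a membrane protein of microglia with no settled role, had 104, 138, 288 and 122 in the mutant and 186, 226, 345 and 101 in the wild-type libraries (log2 fold change -0.40, SE 0.39, adjusted p = 0.432). It spread the least of the 9 genes, 3.41-fold over the 8 libraries, against 9.41-fold for *P2ry12*, which spread the most.

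*Csf1r*, the receptor for CSF1 and IL34, had 1121, 1585, 5362 and 3950.0 normalized counts in mutant libraries 1 to 4 and 1794, 2532, 7023 and 1663 in wild-type libraries 1 to 4. Wild type 3 was the highest library and mutant 1 the lowest, and the ranges of the groups overlapped (log2 fold change -0.11, SE 0.55, adjusted p = 0.883). *Aif1*, which encodes the actin-binding protein IBA1 used to stain microglia, had 31.7, 35.4, 129.7 and 119 in the mutant and 23.9, 28.2, 120.2 and 21.1 in the wild-type libraries. These are the lowest counts of the 9 genes, and 3 of the 8 libraries were high (log2 fold change 0.70, SE 0.64, adjusted p = 0.397). *Trem2*, a lipid-sensing receptor that signals through TYROBP, had 105, 167, 511 and 468 in the mutant and 114, 159, 521 and 111 in the wild-type libraries. Again mutant 3, mutant 4 and wild type 3 stood above the rest (log2 fold change 0.47, SE 0.59, adjusted p = 0.55).

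The complement chains gave the highest fold changes of the 9 genes, without passing the test. *C1qa* had 647, 687, 2359 and 2158 normalized counts in mutant libraries 1 to 4 and 451, 699, 1723 and 417 in wild-type libraries 1 to 4 (log2 fold change 0.83, SE 0.54, adjusted p = 0.233). *C1qb*, its neighbour on chromosome 4 (136880129 to 136886187), had 433, 632, 2040.1 and 1881 in the mutant and 395, 487, 1495 and 330.1 in the wild-type libraries (log2 fold change 0.88, SE 0.57, adjusted p = 0.238). The third chain, *C1qc*, lies between them and had 1323 ± 884 and 761 ± 588 (SD, n = 4 each), with a log2 fold change of 0.80 (adjusted p = 0.27). For each chain the high mutant libraries exceeded the high wild-type library, while mutant 1 and mutant 2 stayed among the low ones.

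*Mrc1*, the mannose receptor of border macrophages, which lymphatic and liver sinusoidal endothelium also makes, followed another order of libraries. It had 491, 425, 834 and 781 normalized counts in mutant libraries 1 to 4 and 150.1, 212, 959 and 427 in wild-type libraries 1 to 4. Mutant libraries held to a 1.97-fold range and wild-type libraries to a 6.39-fold range, wild type 3 being the highest of all 8. The means of 633 ± 205 and 437 ± 367 (SD, n = 4 each) did not differ beyond this spread (log2 fold change 0.53, SE 0.49, adjusted p = 0.405 without the block). The ratio of *P2ry12* to *Mrc1* counts was 0.286, 0.411, 0.803 and 0.342 in the mutant and 2.45, 2.77, 1.38 and 0.447 in the wild-type libraries. Only wild type 4 fell among the mutant values. On the log2 scale *Mrc1* relative to *P2ry12* was 1.75 higher in mutant libraries (p = 0.0571 by a two-sided exact permutation test, which can reach 0.0286 at the lowest). Without wild type 4 the difference was 2.31 (exact permutation p = 0.0286), and with *Cx3cr1* in place of *P2ry12* it was 0.71 (exact permutation p = 0.314).

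Single libraries decided several of these calls. Without wild type 3, 4 of the 9 genes rose in mutant libraries: *Aif1* (log2 fold change 1.70), *C1qa* (1.49), *C1qb* (1.63) and *Mrc1* (1.27), with edgeR adjusted p between 0.0172 and 0.0282. In the same fit 6991 of all 16913 genes tested passed in either direction, so 4 of 9 is near the share of all genes. Without mutant 3, *P2ry12* fell (log2 fold change -1.66, adjusted p = 0.0428), where 7319 of all 17384 genes tested passed. The sample codes in the labels share 3 prefixes, each holding both conditions: replicates 1 and 2, replicate 3, and replicate 4. What the prefix stands for is not given in the labels, though the study drew its wild-type pups from the litters of the mutants. With the prefix as a block, *P2ry12* fell (log2 fold change -0.93, adjusted p = 0.0387) and *Mrc1* rose (0.81, adjusted p = 0.0232), and the other 7 genes did not pass. Of all 16887 genes tested 8610 passed in that fit. *P2ry12* was 0.330-fold, 0.507-fold and 1.40-fold its wild-type level within the 3 prefixes in that order, and *Mrc1* was 2.53-fold, 0.870-fold and 1.83-fold. *Cx3cr1* was 0.730-fold, 0.941-fold and 2.77-fold, and *Csf1r* 0.625-fold, 0.764-fold and 2.38-fold. *C1qa* was 1.16-fold, 1.37-fold and 5.18-fold, *C1qb* 1.21-fold, 1.36-fold and 5.70-fold, and *Aif1* 1.29-fold, 1.08-fold and 5.65-fold. *Trem2* was 0.996-fold, 0.980-fold and 4.23-fold, and *Tmem119* 0.588-fold, 0.835-fold and 1.20-fold. Above a fold of 1 within all 3 prefixes were only *Aif1*, *C1qa* and *C1qb* of the 9 genes, and replicate 4 gave the highest ratio for all but *Mrc1*.

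**Figure D2:**
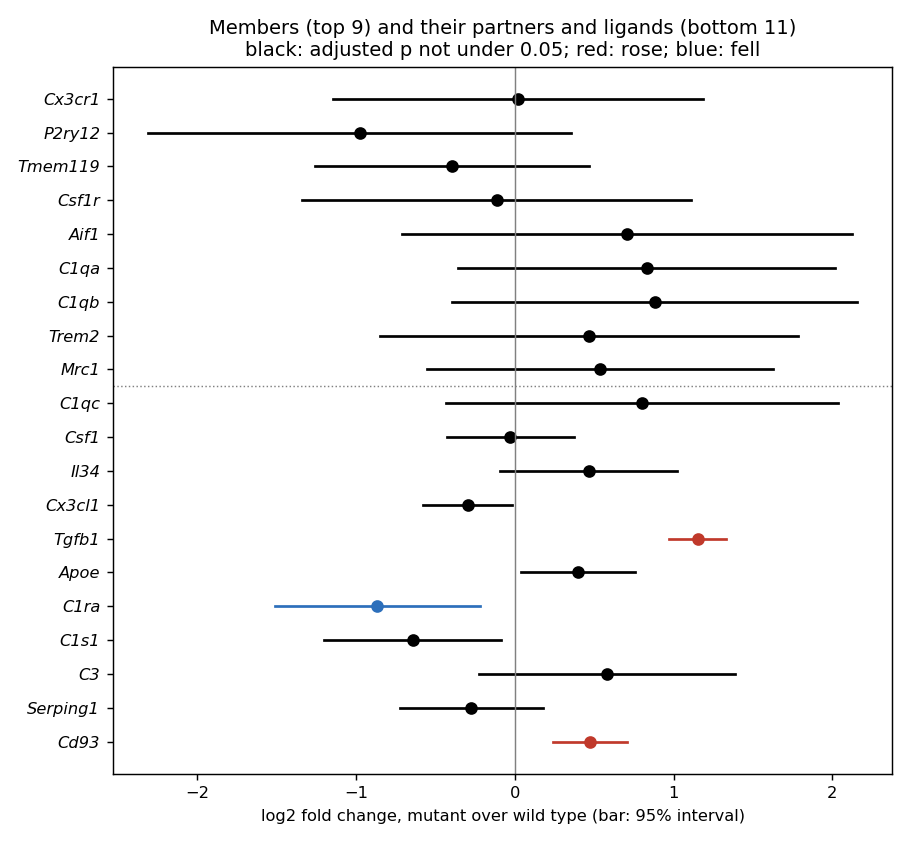
Log2 fold change of mutant over wild-type libraries with its 95% interval from edgeR, for the 9 genes (above the dotted line) and for 11 ligands and partners of their products (below). The intervals of all 9 genes include 0, while *Tgfb1* and *Cd93* rose (red) and *C1ra* fell (blue).

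Because the levels differed so much from pup to pup, the ratios between the 9 genes within each library were also described. Once each group's mean was removed, log2 levels of the genes followed each other closely over the 8 libraries, with Pearson r of 0.878 or more for every pair without *Mrc1* and *Tmem119*. With those 2 genes r went down to 0.375. These 8 points share their libraries and depth, so r is a description. *Cx3cr1* and *P2ry12* had the highest value, 0.997.

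*Cx3cr1* counts were 2.10, 2.17, 1.65 and 2.06 times those of *P2ry12* in mutant libraries 1 to 4 and 0.947, 0.979, 0.888 and 1.04 times in wild-type libraries 1 to 4. The mean ratios were 1.99 ± 0.235 and 0.963 ± 0.0628 (SD, n = 4 each), and every mutant library lay above every wild-type library. *P2ry12* relative to *Cx3cr1* was thereby 1.04 lower on the log2 scale in mutant libraries, in the libraries where both were high and in those where both were low. Leaving out each library in turn gave differences of -1.13 to -0.999. The pair was picked after the values of all pairs were seen, so no test is given. For scale, 3.87% of all genes had a ratio to *Cx3cr1* whose groups did not overlap.

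*Csf1r* stood in the same way to the complement chains. The ratio of *Csf1r* to *C1qb* counts was 2.59, 2.51, 2.63 and 2.10 in the mutant and 4.54, 5.20, 4.70 and 5.04 in the wild-type libraries. Against *C1qa* it was 1.73, 2.31, 2.27 and 1.83 in the mutant and 3.98, 3.62, 4.08 and 3.99 in the wild-type libraries. Each library of a group thus kept nearly the same ratio although the counts themselves varied over 3-fold. Against *Trem2* the ratio averaged 9.77 ± 1.03 and 15.0 ± 1.11, and against *Aif1* 38.7 ± 5.36 and 75.5 ± 13.002 (SD, n = 4 each), again without overlap. *C1qb* to *Trem2* averaged 3.98 ± 0.139 in mutant and 3.09 ± 0.257 in wild-type libraries (SD, n = 4 each), a narrow but complete separation.

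In all, 10 of the 36 pairs did not overlap between the groups. *P2ry12* was in 5 of its 8 pairs, lower in mutant libraries relative to *Cx3cr1*, *Aif1*, *C1qa*, *C1qb* and *Trem2*, where 2.77% of all genes had a ratio to *P2ry12* without overlap. *Csf1r* was in 4 of its 8 pairs, where the share over all genes was 3.75%, *Cx3cr1* was in 1 of 8 and *Mrc1* in 0 of 8. *C1qa* to *C1qb* overlapped, as did *Cx3cr1* to *Csf1r*. Within a library, mutant pups thus had less *P2ry12* for a given amount of the 5 genes, and less *Csf1r* for a given amount of *Aif1*, *C1qa*, *C1qb* and *Trem2*. Such ratios show unequal change and not which member of a pair changed.

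**Figure D3:**
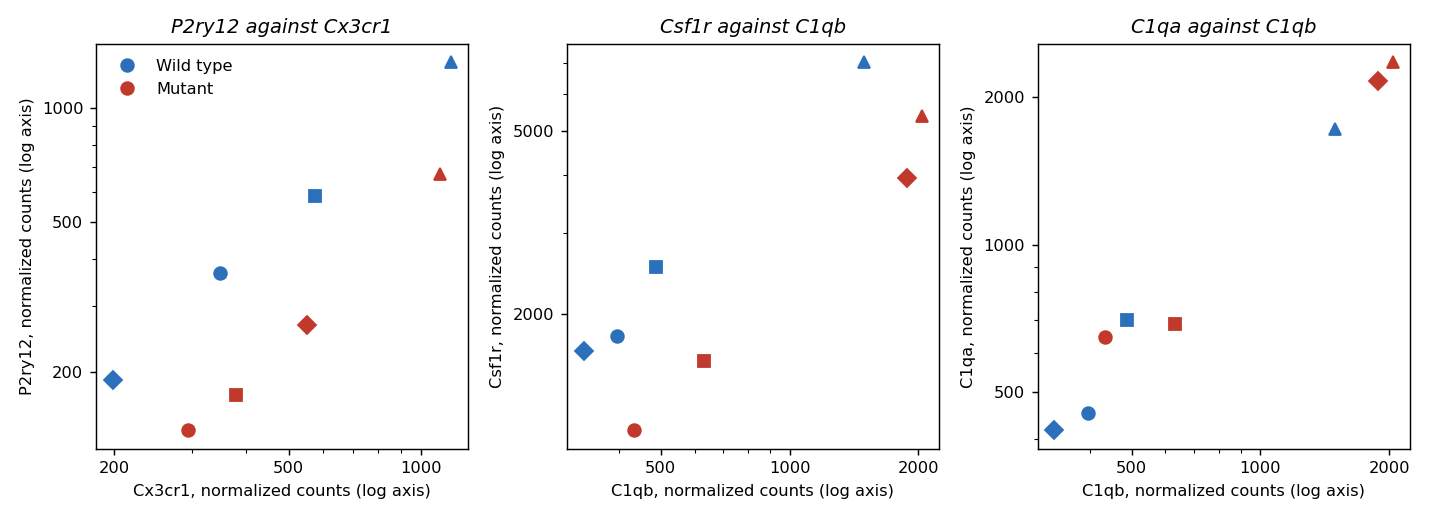
Normalized counts (log axes) of *P2ry12* against *Cx3cr1*, *Csf1r* against *C1qb* and *C1qa* against *C1qb* in 4 wild-type (blue) and 4 mutant (red) libraries, with a symbol for each replicate. In the first and second panels the groups form separate parallel rows, while in the third they share 1 row.

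**Figure D4:**
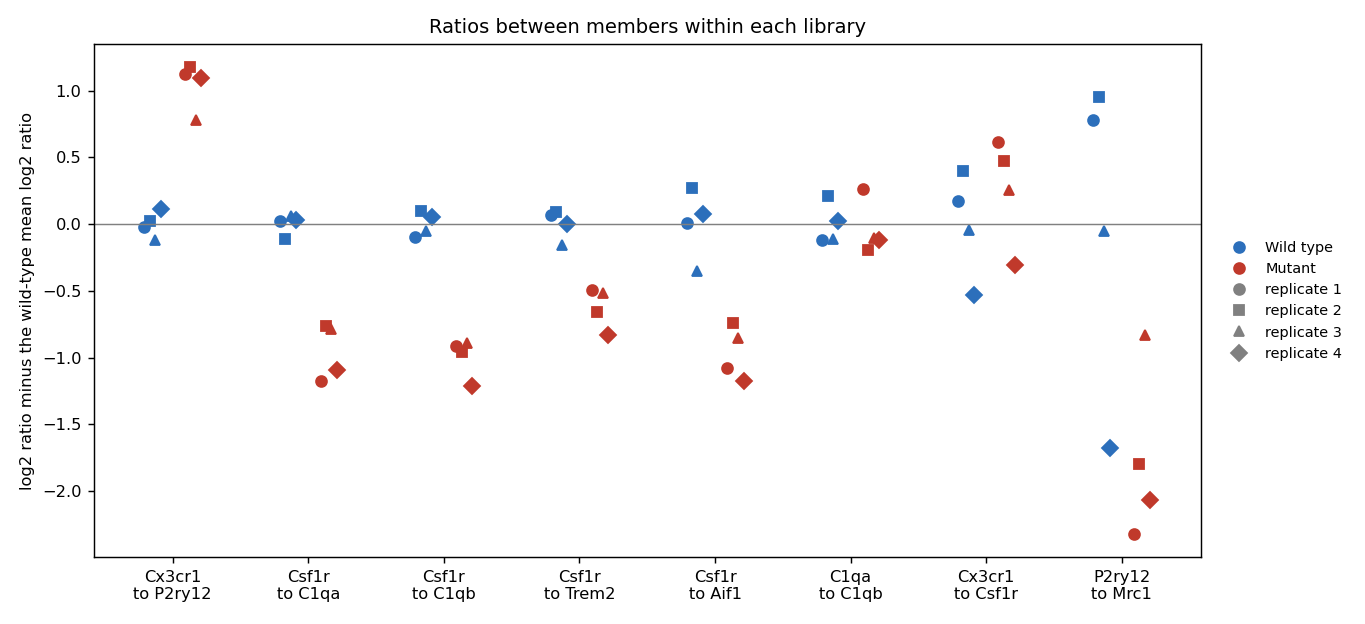
Log2 ratio of counts within each library, minus the mean of the wild-type libraries, for 8 pairs of the 9 genes, with wild-type libraries in blue and mutant libraries in red. The first 5 pairs do not overlap between the groups, and the last 3 do.

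A fit that scaled each library to 16 genes common to macrophages, none of them among the 9, was used to ask the same question of the 9 genes singly. *P2ry12* was lower in mutant libraries relative to this reference (log2 fold change -1.83, SE 0.46, adjusted p = 0.000729), as was *Tmem119* (-1.30, SE 0.45, adjusted p = 0.0131). The SE was 0.44 to 0.47 for all 9 genes, so these p-values hardly measure the spread of each gene between pups. In this fit 45.6% of all genes fell, so 2 of 9 is below the share among all genes. The reference itself moved, since *Irf8* took 22.6% of it in mutant and 6.83% in wild-type libraries. With 14 genes of microglial identity as the reference 0 of 9 passed, and *P2ry12* had a log2 fold change of -0.70. With the median of ratios over either list, a choice made after the data were seen, 0 of 9 passed as well, at -1.28 and -0.62 for *P2ry12*. Leaving out mutant 1, mutant 4, wild type 1 or wild type 2 left *P2ry12* alone, and leaving out wild type 3 added *Csf1r*.

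Of 11 ligands and partners of the 9 gene products 2 rose and 1 fell, where 21.5% of all genes rose and 22.9% fell. *Tgfb1*, a growth factor that keeps microglial identity, rose from 5752 ± 151 to 12783 ± 1268 normalized counts (SD, n = 4 each), a log2 fold change of 1.15 (SE 0.08, adjusted p = 5.59e-06). *Cd93*, an endothelial membrane protein once described as a C1q receptor, rose (log2 fold change 0.47, adjusted p = 0.00448), and *C1ra*, the protease of the C1 complex, fell from 74.0 ± 7.48 to 40.3 ± 17.4 (log2 fold change -0.87, adjusted p = 0.0332). The fall of *C1ra* no longer passed in 5 of the 8 fits without 1 library (edgeR adjusted p up to 0.0919). The other 8 of 11 did not pass. *Csf1*, a ligand of CSF1R, had 5841 ± 1696 and 5965 ± 771 in mutant and wild-type libraries (log2 fold change -0.03, adjusted p = 0.908), and *Il34*, the other ligand, had 289 ± 83.2 and 209 ± 62.4 (SD, n = 4 each; 0.46, adjusted p = 0.158). *Cx3cl1*, the ligand of CX3CR1, had a log2 fold change of -0.30 (adjusted p = 0.0798), and *Apoe*, a lipid carrier that binds TREM2, one of 0.40 (adjusted p = 0.0686). *C1s1*, partner of *C1ra* in the C1 complex, was at -0.64 (adjusted p = 0.0602), *C3*, the next step of the cascade, at 0.58 (adjusted p = 0.221), and the C1 inhibitor gene *Serping1* at -0.27 (adjusted p = 0.299). The median log2 fold change of these 11 genes was 0.40, against -0.02 for all genes tested.

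Other genes of the same cells were read against the 9. Of 14 genes of microglial identity 0 rose, 0 fell and the median log2 fold change was -0.32. In all, 12 of the 14 followed the 9 genes with r of at least 0.9 once group means were removed, a limit set after the data were seen. *P2ry13*, the neighbour and relative of *P2ry12*, and the fructose transporter gene *Slc2a5* were lower relative to *Cx3cr1* in every mutant library than in any wild-type library. The other 12 overlapped, where 3.87% of all genes had a ratio to *Cx3cr1* without overlap. The *P2ry13* to *Cx3cr1* ratio was 0.167, 0.128, 0.233 and 0.227 in the mutant and 0.349, 0.386, 0.325 and 0.298 in the wild-type libraries. *Lag3* had a log2 fold change of -0.37 (adjusted p = 0.143), *Fcrls* one of -0.60 (adjusted p = 0.412) and *Selplg* one of -0.35 (adjusted p = 0.502).

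Of 15 further border macrophage genes 3 rose, where 21.5% of all genes did, 12 did not pass and the median log2 fold change was 0.76. *Stab1*, a scavenger receptor that endothelium also makes, rose from 21106 ± 591 to 45317 ± 9227 (SD, n = 4 each; log2 fold change 1.10, adjusted p = 0.00011), with an r of -0.60 to the 9 genes. *Clec4n* (2.09, adjusted p = 0.0282) and *Ms4a6c* (1.27, adjusted p = 0.0493) rose too, and their wild-type libraries averaged 9.03 ± 5.66 and 13.004 ± 6.90 (SD, n = 4 each). *Cd163*, a haemoglobin scavenger receptor, had a log2 fold change of 1.499 (adjusted p = 0.122), the hyaluronan receptor gene *Lyve1* one of 1.03 (adjusted p = 0.177) and *F13a1* one of 0.76 (adjusted p = 0.446). These calls held in 13 of 16 alternative fits for *Cd163*, 12 of 15 for *Lyve1* and 14 of 16 for *F13a1*. In the remaining fits the gene passed as higher in mutant libraries.

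Of the 16 genes common to macrophages 3 rose, again beside 21.5% of all genes, and 13 did not pass, with a median of 0.48. *Irf8*, a transcription factor of the myeloid line, rose from 564 ± 195 to 3368 ± 831 (SD, n = 4 each; log2 fold change 2.58, adjusted p = 3.22e-05), without following the 9 genes (r = 0.33). *Coro1a*, an actin regulator of leukocytes (1.58, adjusted p = 0.000689), and the lipopolysaccharide co-receptor gene *Cd14* (1.12, adjusted p = 0.047) rose too. *Cd14* overlapped between the groups and no longer passed in 5 of the 8 fits without 1 library (edgeR adjusted p up to 0.145). The Fc receptor gene *Fcgr3* did not pass (1.14, adjusted p = 0.0815) and followed the 9 genes at r = 0.98. Relative to *Cx3cr1* it was higher in every mutant library than in any wild-type library, and the other 15 of the 16 overlapped. Of all genes 3.87% had a ratio to *Cx3cr1* without overlap.

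Of 15 tested genes of activated microglia 8 rose, where 21.5% of all genes did, 0 fell and the median log2 fold change was 1.53. This list was chosen with earlier results of these data known, so the count describes the listed genes only. *Itgax*, an integrin of dendritic cells and activated microglia, rose from 38.5 ± 26.0 to 305 ± 165 (SD, n = 4 each; log2 fold change 2.98, adjusted p = 0.00104). The lipase gene *Lpl* rose by 2.48 (adjusted p = 7.23e-05), the growth factor gene *Igf1* by 2.22 (adjusted p = 0.00137) and osteopontin, *Spp1*, by 1.57 (adjusted p = 0.000366). *Gpnmb*, *Lgals3*, *Ccl2* and *Ctsb* were the other 4. Their r with the 9 genes ran from 0.53 to 0.89, and which cells made them was not tested. Relative to *Cx3cr1*, 2 of the 15 genes, *Lpl* and *Gpnmb*, were higher in every mutant library than in any wild-type library. Of the 15 border macrophage genes 0 separated in this way, and of all genes 3.87%.

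**Figure D5:**
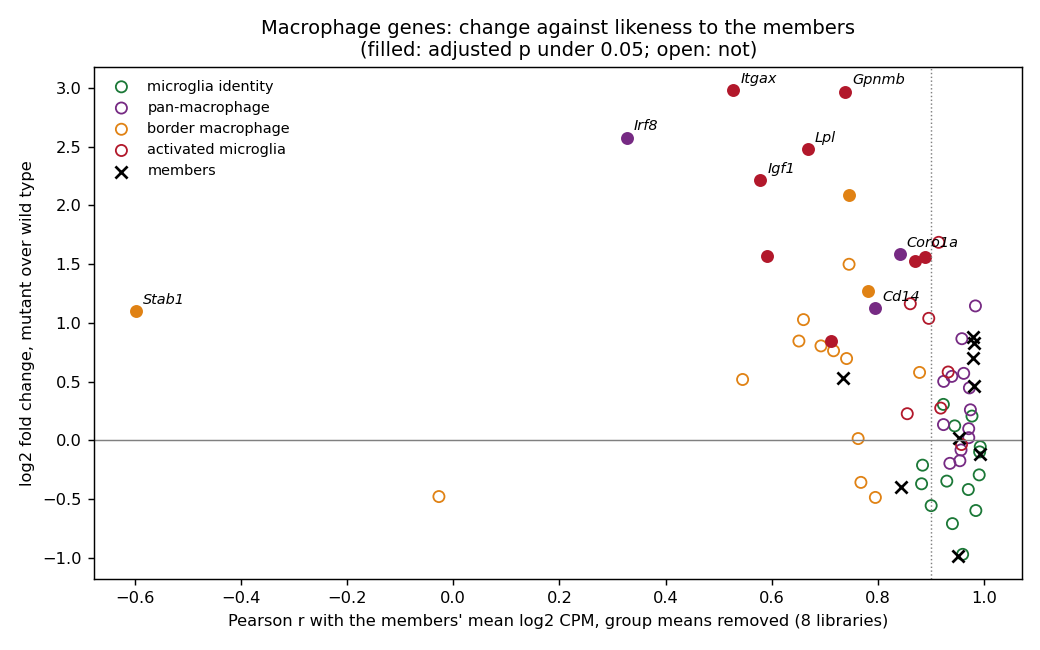
Log2 fold change of mutant over wild-type libraries against Pearson r with the mean log2 level of the 9 genes over the 8 libraries, group means removed, for 4 lists of macrophage genes and the 9 genes (crosses), filled where the adjusted p was under 0.05. Filled points lie left of the dotted line at r = 0.9, a limit set after the data were seen, and genes to its right share the spread of the 9 genes within groups, which the test counts as error.

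The genes whose log2 levels were most like the mean of the 9 genes over the 8 libraries, among 11392 other genes with at least 100 normalized counts in either group, were *Lpcat2* (r = 0.988), *Tlr2* (0.988), *C5ar1* (0.987), *Csf3r* (0.987), *Myo1f* (0.981), *Efhd2* (0.977), *Gpr84* (0.975), *Itgam* (0.974), *Nckap1l* (0.971) and *Olfml3* (0.970). None of the 10 passed, their log2 fold changes lying between -0.05 and 0.27. Without the 2 libraries farthest from the median, r was 0.894 for *Olfml3* and 0.942 to 0.979 for the other 9.

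Markers of some other cell types moved with the groups and stand beside these results. Among all genes 21.5% rose and 22.9% fell. The oligodendrocyte, neuronal and dissociation lists fell well beyond that share, while the counts called in the other lists lay nearer to it. All 8 oligodendrocyte genes fell, their summed normalized counts being 1531 to 2574 in mutant and 3794 to 9848 in wild-type libraries, and *Mbp* fell by 2.45 on the log2 scale (adjusted p = 0.000158). Of 8 neuronal genes 6 fell, with sums of 685 to 984 and 1233 to 3293, and 2 of 8 astrocyte genes fell, with sums of 781 to 1996 and 2026 to 2766. Of 10 genes induced by dissociation 8 fell, with sums of 138399 to 233758 and 299529 to 380576, *Fos* by 1.24 (adjusted p = 0.000239). The list includes *Fos* and *Jun*, whose products the study names as factors induced through ERK1/2, which MAP2K1 activates. Dissociation and this pathway cannot be told apart here, and neither was tested. Among 10 tested genes of other leukocytes 1 rose and 2 fell, and the T cell genes *Cd3e* and *Cd3d* were too low to be tested. The sums over all 15 listed leukocyte genes were 486 to 796 and 581 to 1165. Of 5 tested platelet genes 1 fell and 0 rose (sums over the 6 listed 335 to 473 and 387 to 450.3). Of 10 pericyte and smooth muscle genes 3 rose (20480.4 to 34382 and 19488 to 36144), and of 10 EC genes 3 rose and 2 fell (326885 to 410468 and 293177 to 351946). The part of these cells and of dissociation in the ratios between the 9 genes was not tested.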

How the data were processed

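Brain ECs of 4 mutant and 4 wild-type pups were sequenced, 1 library per pup, and groups and replicate numbers were taken from the titles. After trimming with Trimmomatic and alignment to GRCm38 with STAR, the authors deposited whole-number counts per gene without normalization. The counting program, the annotation and the use of strand are not given in the sources used here, so overlapping genes are uncertain. A second deposited set, normalized with DESeq2, was not used. Symbols came from GENCODE vM21 for 48970 of 49315 identifiers.

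The tests ran on these counts in edgeR 4.0.16 and limma 3.58.1 under R 4.3.3. After TMM scaling and removal of low counts by filterByExpr (minimum count 10), the whole table was fitted with glmQLFit and glmQLFTest without covariates. Benjamini-Hochberg adjustment ran over all genes tested, and rose or fell means an adjusted p under 0.05. Correlations used log2 CPM with a prior count of 2. Libraries of a group differed by more than sampling noise, with a chi-square per degree of freedom of 6.70 to 37.1. At this depth the spread between pups limits the precision more than counting error does. The fits were tested on simulated data. The 9 genes and the 13 other lists were chosen with earlier results of these data known. The genes named are the 9, *Map2k1*, the 11 ligands and partners, from each other list up to 4 genes of lowest adjusted p whose mean reached 100 normalized counts in either group, and the 10 genes most alike. Named outside this rule, after their values were seen, were *Slc2a5*, *Clec4n*, *Ms4a6c*, *Gpnmb*, *Lgals3*, *Ccl2*, *Ctsb*, *Cd3e*, *Cd3d* and *Cldn5*. The alternatives were DESeq2 1.42.0, other normalizations and filters, glmTreat, replicate number or label prefix as a block, other references and each library left out.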

Additional observations from a re-analysis of the deposited data

Results flagged for a closer look

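In 13 of 136 groups of 4 libraries screened, 1 library stood apart from the other 3 by Dixon's gap. Chance gives about 1 in 20 for independent groups with a normal distribution. Many of the genes screened vary together, so the groups are not independent and the count shows no excess over chance. Of the 13, 7 were wild type 3 at the top of its group, with 7023 normalized counts of *Csf1r*, 120.2 of *Aif1*, 1495 of *C1qb*, 521 of *Trem2*, 1640.1 of *C1qc*, 216 of *C3* and 1162 of *Lag3*. Mutant 3 was highest among mutant libraries for *Selplg* (511), for the astrocyte list gene *Sox9* (549) and for *Aldoc* (172). Mutant 4 was highest for *Itgax* with 551, mutant 2 was highest for *Olig1* with 64.1, and mutant 1 was lowest for *Stmn2* with 124.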

How the results depend on the processing

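With DESeq2, other normalizations, other filters and glmTreat, 0 of the 9 genes passed, as before. With the replicate number as a replicate block 2 passed, *P2ry12* (log2 fold change -0.92, edgeR adjusted p = 0.0430) and *Mrc1* (0.81, adjusted p = 0.0341), and with the prefix as a block the same 2. Of all 16887 genes tested, 8162 passed with the replicate block and 8610 with the prefix block. Leaving out 1 library gave 0 to 4, where 6352 to 7319 of all genes tested passed. The replicate numbers were not taken to pair the pups: deviations of same-numbered libraries from their group means correlated at 0.20, 0.21, 0.29 and 0.02, and mutant 2 and mutant 4 did not correlate best with their own number. Mutant 2 correlated best with wild type 1, which has the same label prefix, and mutant 4 with wild type 3, which has another. The check concerns replicate numbers and does not decide whether pups of a prefix belong together. The block left the log2 difference of *Mrc1* to *P2ry12* at 1.75 (exact permutation p = 0.125, the lowest that 4 pairs allow, with all 4 pairs in the same direction), and leaving out 1 library gave 1.43 to 2.31, the highest without wild type 4. Scaled to macrophage genes, 2 of 9 passed, 3 with the block, 1 to 3 without 1 library, and 0 with the microglial identity list or either median of ratios. Over all lists 53 genes passed, 42 to 75 under the alternatives and 44 to 64 without 1 library. *Cx3cr1*, close to 0, changed sign with the upper quartile (-0.0466), with the filter on a mean of 100 normalized counts (-0.00256) and without 1 library (-0.49 to 0.64). Without 1 library, signs also changed for *Csf1r* (-0.55 to 0.59), *Csf1* (-0.20 to 0.13), *Fcrls* (-1.01 to 0.0813) and *Selplg* (-0.81 to 0.0444). *Csf1* was 0.0618 when libraries were scaled to EC genes. The cause was not tested. With 4 libraries a group, the spread between pups and not the depth limits what can be said of the 9 genes.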
